A study of Mus musculus with 22 samples.

Results

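The genes described here encode the membrane carriers of the amino acid transporter families Slc1a, Slc3a, Slc6a, Slc7a, Slc36a, Slc38a and Slc43a in mouse liver. They were chosen by family name alone, as every gene with one of these family symbols and a number to which a probe set of the array was annotated without a second symbol. This gave 60 genes with 121 probe sets, of 18194 genes with 34958 such probe sets. Livers came from male C57BL6 mice, 8 weeks old, given the non-steroidal anti-inflammatory drug diclofenac sodium intraperitoneally at 30 mg/kg once daily, or saline in its place, and examined on day 1, day 3 or day 14. There were 3 livers of diclofenac-treated and 3 of saline-treated mice on day 1, the same numbers on day 3, and 5 of each on day 14, with 1 Affymetrix Mouse 430 2.0 array per liver. The labels name no transgene or deletion and do not tie a saline mouse to a diclofenac mouse. The labels give a group size of 5 throughout, so fewer arrays than that were analysed here on days 1 and 3.

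The liver takes up amino acids from portal blood for protein synthesis, urea and glutathione, and hepatocytes hand glutamine and glutamate on from one zone of the lobule to another. Slc38a carriers move glutamine, alanine and other small neutral amino acids with sodium, and Slc1a carriers move glutamate or small neutral amino acids. Some Slc36a carriers use protons, and the cationic carriers of Slc7a bring in arginine and lysine. Another group of Slc7a proteins are light chains that reach the membrane only when linked to a heavy chain, Slc3a1 or Slc3a2. The family names are wider than the label "amino acid transporter": Slc6a also holds carriers of monoamines (Slc6a2, Slc6a3, Slc6a4), creatine (Slc6a8), betaine and GABA (Slc6a12) and taurine (Slc6a6), and Slc43a3 carries nucleobases.

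The values were MAS5 signals, a linear brightness on which each array had a trimmed mean of 500.0, and differences are log2 differences of diclofenac minus saline livers. A gene was tested where its signal exceeded the array median in at least 3 arrays, which kept 42 of the 60 genes on days 1 and 3, 37 on day 14 and 44 in the fit of all 22 arrays. The 10 hepatocyte markers checked, among them Alb and Apoa1, lay above the array median in all 22 livers. Of the diclofenac livers, 2 stood apart: day 14 replicate 3 had a mean correlation of 0.895 with its own group and day 1 replicate 2 one of 0.935, while the other diclofenac livers of days 1 and 14 had 0.941 to 0.947. These same livers carried summed neutrophil marker signals (9 of 10 markers measured) of 24442 and 25793, against 797 to 3585 in the other 9 diclofenac livers and 339.6 to 1160.5 in the 11 saline livers. Diclofenac day 14 replicate 3 also had the highest day 14 sums of Kupffer cell, monocyte, stellate cell, cholangiocyte and endothelial markers. These sums were 35449, 5073, 18482, 2394 and 9622 in that order, against saline maxima of 12610.5, 1799, 11717, 336 and 8701. Its erythroid, kidney proximal tubule and exocrine pancreas sums were the lowest of day 14. Beside the carrier results that moved most with the 2 livers that stood apart, values without them are given. In whole liver, more or fewer cells of a type and more or less RNA per cell cannot be told apart.

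Across the families, 1 gene passed the test over the 3 days and none passed on a single day. By limma with Benjamini-Hochberg adjustment over all genes tested, 0 of 42 members passed on day 1 (background 0% of 12900 genes), 0 of 42 on day 3 (background 0.202%) and 0 of 37 on day 14 (background 0% of 11900 genes). The mean diclofenac effect of the 3 days was called in 1 of 44 members, Slc3a1, against a background of 1.68% of 13340 genes. At an unadjusted p under 0.05 limma gave 6 members on day 1 (5 higher, 1 lower, background 12.9%), 10 on day 3 (7 higher, 3 lower, background 10.8%), 3 on day 14 (all higher, background 10.8%) and 10 for the mean effect (7 higher, 3 lower, background 18.5%). The day 3 share, 23.8% of members, was the one furthest above its background. By the methods' t-test, an unadjusted p under 0.05 with a change over 1.5-fold, 2 members passed on day 1 (background 1.47%), 7 on day 3 (background 2.47%) and 1 on day 14 (background 2.43%), and none did after Benjamini-Hochberg adjustment.

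The livers of both groups did not overlap for 8 of 42 members on day 1 (7 higher, background 16.2%), for 12 of 42 on day 3 (9 higher, background 20%) and for 2 of 37 on day 14 (both higher, background 3.8%). The median log2 difference of the members tested was 0.00599 on day 1, 0.135 on day 3 and 0.041 on day 14, beside 0.000486, 0.00806 and -0.0147 for all genes tested. Of the 35 members tested on all 3 days, 12 were higher on each day and 4 lower on each day, which is 34.3% and 11.4% beside 21.1% and 21.4% of all 11710 genes tested on the 3 days. Without diclofenac day 14 replicate 3, Slc36a4, Slc43a1 and Slc7a8 of the higher members were lower on day 14 (-0.13, -0.17 and -0.30). Without diclofenac day 1 replicate 2, Slc1a4, Slc6a8 and Slc6a12 were lower on day 1 (-0.02, -0.12 and -0.01). Of the lower members, Slc3a2, Slc6a6 and Slc6a9 were then higher on day 1 (0.09, 0.02 and 0.01). Slc6a2 was read from another probe set on day 14, which was lower on days 1 and 3 (-0.34 and -0.27).

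**Figure D1:**
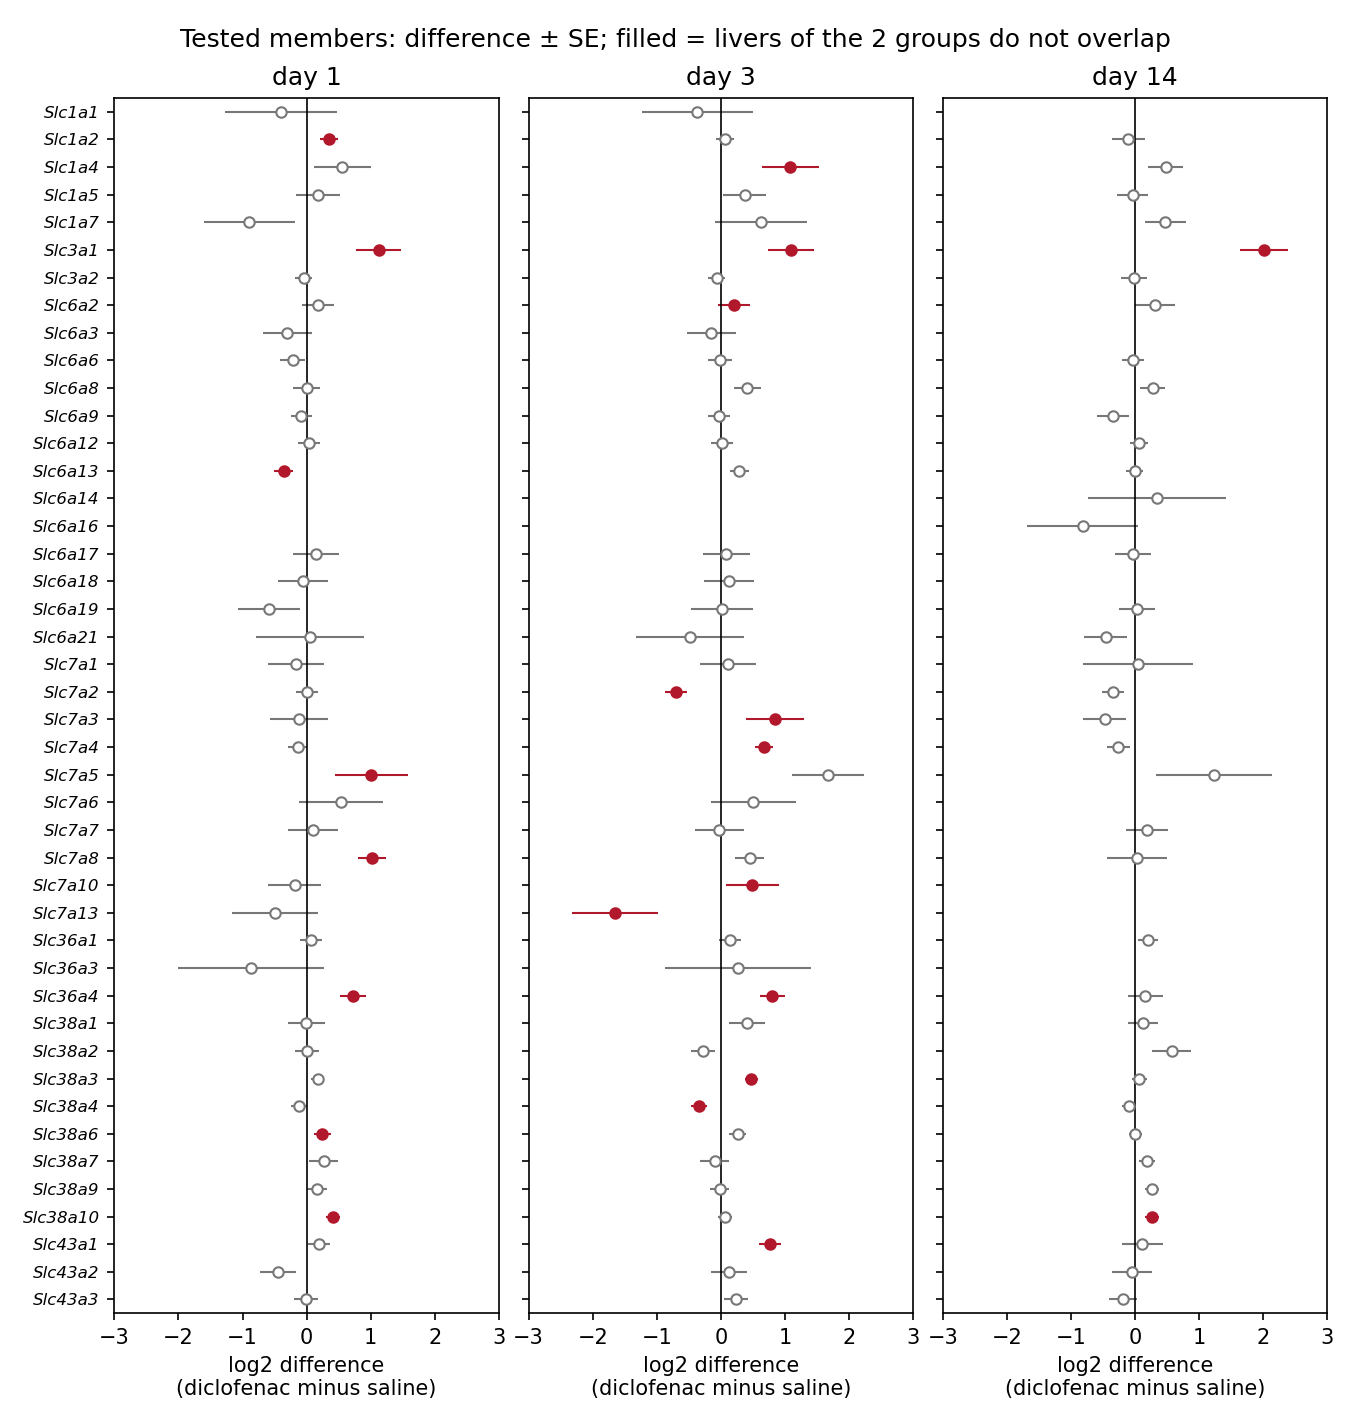
Log2 difference of diclofenac minus saline livers (horizontal axis) for each tested member (rows, by family) on days 1, 3 and 14, with bars of 1 SE from limma. Filled points mark members whose diclofenac and saline livers did not overlap: 8 on day 1, 12 on day 3 and 2 on day 14, with Slc3a1 filled on all 3 days.

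Slc3a1 was higher in diclofenac livers on every day. It encodes rBAT, the heavy chain of the exchanger that takes up cystine and dibasic amino acids, best known from kidney and intestine, and lies at chr17:85028347-85064241 (GRCm38). On day 1 its signal was 2537, 10002 and 3858 in diclofenac livers, against 2461, 1859.5 and 2062 in saline livers. On day 3 it was 4521, 3046 and 3768 in diclofenac livers, against 1848, 1608 and 1790.2 in saline livers. On day 14 it was 7207, 4446, 10099, 3555 and 3994 in diclofenac livers, against 910.4, 1398, 1926, 695 and 2500.0 in saline livers. On none of the 3 days did a saline liver reach the lowest diclofenac liver, although on day 1 the lowest of the diclofenac livers lay just above the highest saline liver and replicate 2 lay far above both other diclofenac livers.

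The log2 difference of Slc3a1 was 1.12 ± 0.36 on day 1 (SE, n = 3 each, adjusted p = 0.301 by limma), 1.10 ± 0.36 on day 3 (n = 3 each, adjusted p = 0.276 by limma) and 2.02 ± 0.38 on day 14 (n = 5 each, adjusted p = 0.0919 by limma), or 2.18-fold, 2.14-fold and 4.04-fold. The mean over the 3 days was 1.41 ± 0.25, or 2.66-fold (adjusted p = 0.00491 by limma, higher in 11 of 11 diclofenac livers than in every saline liver of the same day). A two-sided exact permutation test gave p = 0.00794 on day 14, the smallest that 5 against 5 livers allow, and 0.1 on days 1 and 3, the smallest for 3 against 3. The day 14 effect exceeded the mean of the earlier effects by 0.90 ± 0.48, which did not pass the test (adjusted p = 0.811 by limma).

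The day 1 difference of Slc3a1 depended on diclofenac replicate 2 and was 0.57 without it (adjusted p = 0.555 by limma). The mean effect passed the test without the 2 livers that stood apart, at 1.15 (adjusted p = 0.00174 by limma, an alternative chosen after seeing the data). At day 14 the fit without diclofenac replicate 3 gave 1.79 ± 0.33 and passed the test (adjusted p = 0.029 by limma). On day 3 the call also appeared when diclofenac day 1 replicate 2 was left out of the shared fit (adjusted p = 0.00817 by limma). Within diclofenac livers the 2 highest Slc3a1 signals, 10002 and 10099, were those of the 2 livers with the highest summed neutrophil markers, and on each day every diclofenac liver had a higher neutrophil sum than every saline liver. The part of neutrophils in the Slc3a1 result was not tested. Markers of kidney proximal tubule, where Slc3a1 is best known, overlapped between groups on every day, with sums of 630.3 to 874 in diclofenac livers and 601 to 701 in saline livers on day 1, and of 362 to 659 in diclofenac livers and 369.5 to 696 in saline livers on day 14. Of the 7 kidney markers, Slc22a12 and Slc5a2 lay above the array median in 21 of 22 livers each, Slc34a1 in 13, Kap in 12, Lrp2 in 10, Slc22a6 in 1 and Umod, which also marks another tubule segment, in 0. The part of kidney markers in the Slc3a1 result was not tested.

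**Figure D2:**
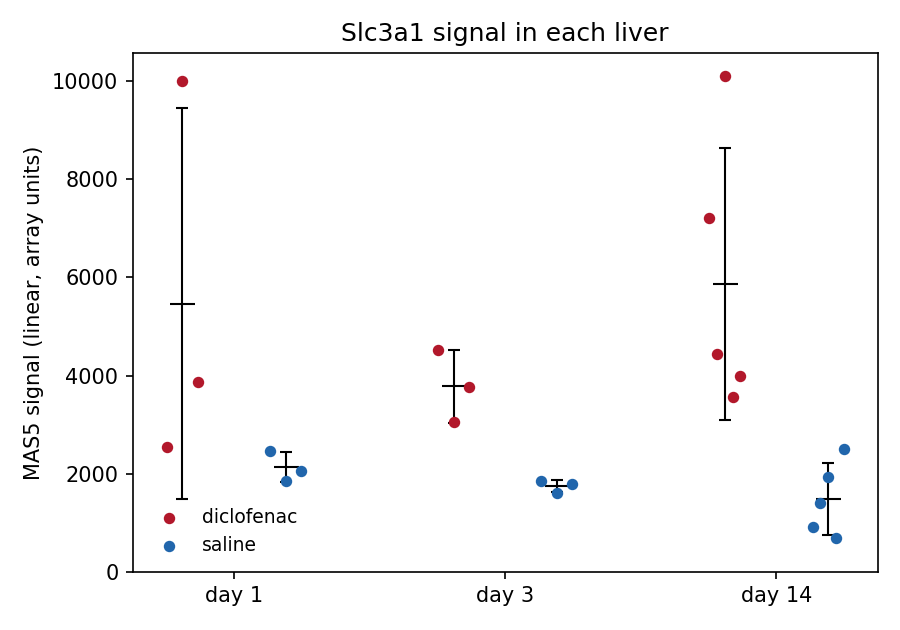
MAS5 signal of Slc3a1 (vertical axis, linear) in each liver on days 1, 3 and 14, diclofenac left of saline, with the group mean and SD as a dash and bars. Diclofenac livers lay between 2537 and 10099 and saline livers between 695 and 2500.0, with no overlap within a day.

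The 250 bases in front of the Slc3a1 start site are shown because Slc3a1 is the member called over the 3 days. They come from RefSeq (GRCm38.p6, chr17:85028097-85028346, + strand) and are in lower case throughout because none of the 3 motifs searched was found in them or in the 50 bases that follow.
Slc3a1: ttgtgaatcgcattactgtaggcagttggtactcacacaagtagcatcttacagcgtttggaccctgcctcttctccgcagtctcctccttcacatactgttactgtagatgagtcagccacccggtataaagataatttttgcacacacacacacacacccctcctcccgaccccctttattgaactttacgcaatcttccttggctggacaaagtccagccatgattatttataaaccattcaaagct
The motifs were the core of the composite element of Atf4 and C/EBP, a factor pair that acts in amino acid shortage (TGATGNAA), the core of the antioxidant response element (TGACNNNGC) and the STAT palindrome (TTCNNNGAA), each on both strands. RefSeq gave promoters for 43 of the 60 members, 64 in number, and 5, 11 and 4 of these 64 held the 3 motifs in that order (7.81%, 17.2% and 6.25%), beside 3.97%, 12.4% and 8.3% of all 32851 promoters. From these matches 3 are shown, 1 each in Slc1a4, Slc43a1 and Slc38a2, as examples in carriers whose groups did not overlap on day 3 (Slc1a4, Slc43a1) or with 1 liver far above the rest (Slc38a2), with 10 bases on either side and the match in capitals. Matches in Slc6a9, Slc6a13, Slc7a1, Slc7a7, Slc7a11, Slc36a1 and Slc38a9, among others, are not shown.
Slc1a4 (Atf4 and C/EBP core, chr11:20332700-20332727, - strand): gcctcctgcgTTGCATCAtctccagcct
Slc43a1 (antioxidant core, chr2:84840297-84840325, + strand): agcgccgccgGCTGTGTCAggcgggagga
Slc38a2 (antioxidant core, chr15:96699737-96699765, - strand): ccccgcccacTGACGCGGCgccccgccgc
These matches describe the sequence only.

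The light chains that pair with Slc3a1 were dim. Slc7a9, the light chain that pairs with Slc3a1 in kidney, was not tested, its signal reaching 116 at most in any of the 22 livers. Its signal was 13.9, 40.6 and 7.8 in diclofenac livers on day 1, against 61.3, 66.8 and 76.3 in saline livers, all below the array medians of 75.2 to 89.9. On day 14 it was 55.7, 25.5, 55.5, 44.1 and 54.7 in diclofenac livers, against 51.2, 45.3, 46.8, 26.7 and 5.37 in saline livers. These dim values lay lower in diclofenac livers without overlap on day 1 and overlapped on day 14. Slc7a13, a further light chain known to pair with Slc3a1 in mouse kidney, had 12.2, 14.2 and 13.2 in diclofenac livers on day 3, against 25.6, 55.6 and 50.1 in saline livers, a difference of -1.65 ± 0.67 in signals below the array median (adjusted p = 0.388 by limma). Its second, also dim probe set differed by 0.80 on that day, in the opposite direction.

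Slc3a2, the other heavy chain, which serves the light chains Slc7a5, Slc7a7, Slc7a8 and Slc7a11, had 1326, 989.6 and 1325 in diclofenac livers on day 1, against 1099, 1309.8 and 1332 in saline livers. Its differences were -0.05 ± 0.13, -0.06 ± 0.13 and -0.02 ± 0.20 on days 1, 3 and 14 (n = 3, 3 and 5 each), so that the groups overlapped each time. Slc7a8, or LAT2, a carrier of large and small neutral amino acids, gave the lowest p of the families on day 1. Its day 1 signal was 298, 309 and 298 in diclofenac livers, against 134, 158 and 156 in saline livers. All 3 diclofenac livers lay at about the same level and well clear of the saline livers, with a log2 difference of 1.02 ± 0.22 (2.03-fold, adjusted p = 0.229 by limma).

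On day 3 Slc7a8 had 251, 308 and 304 in diclofenac livers, against 189, 162 and 303 in saline livers, where 1 saline liver reached the diclofenac level (0.45 ± 0.22, adjusted p = 0.488 by limma). By day 14 the groups lay together (0.03 ± 0.47), with 90.0, 72.9, 211, 32.6 and 95.2 in diclofenac livers and 123, 111, 101, 59.5 and 46.5 in saline livers. Slc7a5, or LAT1, a carrier of branched-chain and aromatic amino acids, had 271, 291 and 204 in diclofenac livers on day 1, against 145, 72.6 and 186 in saline livers. Its differences of 1.01 ± 0.57, 1.67 ± 0.57 and 1.22 ± 0.90 on days 1, 3 and 14 had large errors and did not pass after adjustment (adjusted p = 0.473, 0.296 and 0.631 by limma).
On day 14 Slc7a5 had 242, 195, 535, 83.3 and 16.4 in diclofenac livers, against 21.4, 92.9, 115, 124 and 17.6 in saline livers. The 5 diclofenac livers spanned the whole range, from the lowest of all 10 livers to the highest, and the difference was 0.71 ± 0.84 without replicate 3. Slc7a11, the cystine and glutamate exchanger of the antioxidant response, was not tested in any fit, its signal reaching 81.6 at most.

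Slc7a7, the light chain that exports cationic amino acids, differed by 0.10 ± 0.39, -0.02 ± 0.39 and 0.19 ± 0.33 on days 1, 3 and 14. Diclofenac day 14 replicate 3 had 291, the other 4 diclofenac livers 83.5 to 110.1, and without replicate 3 the day 14 difference was -0.13.

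Among the cationic carriers, Slc7a2 and Slc7a4 had opposite differences on day 3. Slc7a2, or CAT2, is the main arginine carrier of hepatocytes. On day 3 its signal was 9303, 9441 and 13980.1 in diclofenac livers, against 19089, 18045 and 15328 in saline livers. Every diclofenac liver lay below every saline liver, with replicate 3 the nearest to them, and the difference was -0.70 ± 0.17 (adjusted p = 0.14 by limma). All 4 probe sets of Slc7a2 were lower on day 3, from -0.76 to -0.09, and all 4 were lower on day 14, from -0.46 to -0.30. Without diclofenac day 3 replicate 3 the main probe set gave -0.89 and passed the test (adjusted p = 0.0384 by limma).

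On day 1 Slc7a2 had 12897, 11520.0 and 12851 in diclofenac livers, against 9965, 15225 and 12578 in saline livers, with the diclofenac livers inside the saline range (0.00 ± 0.17). On day 14 it had 12764, 17857, 20750.2, 16771 and 18866 in diclofenac livers, against 19977, 17733, 26375, 18923 and 28007 in saline livers. These groups overlapped, and the difference was -0.35 ± 0.17 (adjusted p = 0.486 by limma). The mean effect of -0.35 ± 0.11 did not pass (adjusted p = 0.107 by limma) unless diclofenac day 14 replicate 3 was left out (-0.37, adjusted p = 0.049 by limma).

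Slc7a4, a relative of the cationic carriers whose own transport is little known, had 549, 479 and 549 in diclofenac livers on day 3, against 275, 381 and 339 in saline livers. The groups stood clear of each other with a difference of 0.67 ± 0.14 (1.60-fold, adjusted p = 0.101 by limma). Its 3 probe sets did not move together, with differences from -3.26 to 1.65 on that day, so that their mean gave -0.31 in place of 0.67. Without diclofenac day 1 replicate 2, which shares the fit's error, the day 3 difference of Slc7a4 passed (adjusted p = 0.0431 by limma). On day 1 Slc7a4 had 378, 361 and 351 in diclofenac livers, against 428, 372 and 402 in saline livers, and on day 14 the difference was -0.26 ± 0.18.

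The day 3 effect of Slc7a4 exceeded its day 1 effect by 0.81 ± 0.21, the largest such gap, up or down, among the 5 members at an unadjusted p under 0.05 (Slc43a1, Slc6a13 and Slc7a4 upward, Slc38a10 and Slc7a2 downward). None of the 42 members passed that test after adjustment (adjusted p = 0.882 for Slc7a4 by limma, background 0%), and 5.3% of all genes lay at an unadjusted p under 0.05. For the day 14 effect against the earlier days 0 of 44 members passed (background 0.0225%) and 1, Slc7a4, lay at an unadjusted p under 0.05 (background 6.45%). The ubiquitous cationic carrier Slc7a1 differed by -0.17 ± 0.44, 0.11 ± 0.44 and 0.04 ± 0.85 on days 1, 3 and 14, and Slc7a3 by -0.12 ± 0.45, 0.85 ± 0.45 and -0.48 ± 0.34.

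The Slc38a carriers, which bring glutamine and alanine into hepatocytes, split on day 3. Slc38a3, or SNAT3, a glutamine carrier of hepatocytes, had 34989.8, 30033 and 32063 in diclofenac livers, against 26354, 22786 and 20806 in saline livers. All diclofenac livers were above all saline livers, by 0.48 ± 0.10 (1.39-fold, adjusted p = 0.107 by limma), and its second probe set differed by 0.56. Without diclofenac day 1 replicate 2 in the shared fit Slc38a3 passed on day 3 (adjusted p = 0.037 by limma). On day 14 it had 16871, 13778, 17460.4, 15452 and 15338 in diclofenac livers, against 15340.0, 12685, 17309, 13426 and 17057 in saline livers, which overlapped fully (0.06 ± 0.12).

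Slc38a4, or SNAT4, a carrier of neutral amino acids found mainly in liver, had 15676, 18568 and 21479 in diclofenac livers on day 3, against 24274, 23390.0 and 22717 in saline livers. The diclofenac livers lay below the saline livers and were more spread, and the difference was -0.35 ± 0.12 (adjusted p = 0.32 by limma). A second probe set of Slc38a4 differed by only -0.02 on that day. Slc38a10, a widely expressed member of the family, was higher in every diclofenac liver on days 1 and 14. On day 1 it had 4940.1, 6399.7 and 4728 in diclofenac livers, against 3893, 3866 and 4216 in saline livers (0.41 ± 0.11, adjusted p = 0.253 by limma), and the difference was 0.28 without replicate 2.

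On day 3 Slc38a10 had 4630.3, 4031 and 4750.0 in diclofenac livers, against 4189, 4215 and 4407 in saline livers, which overlapped (0.06 ± 0.11). On day 14 it had 4152, 4056, 5596, 3842 and 4041 in diclofenac livers, against 3838, 3686, 3479.9, 3601 and 3399.7 in saline livers. The lowest diclofenac liver lay just above the highest saline liver, the difference was 0.26 ± 0.11 (adjusted p = 0.441 by limma), and it was 0.16 ± 0.07 without diclofenac replicate 3, over 1.5 times smaller. All 7 probe sets of Slc38a10 were higher on day 1 and on day 3, and 6 of 7 on day 14. Its mean effect of 0.24 ± 0.07 did not pass (adjusted p = 0.0709 by limma), but passed without diclofenac day 14 replicate 3 (adjusted p = 0.0278 by limma) without diclofenac day 1 replicate 3 (adjusted p = 0.0488 by limma) and without both livers that stood apart (0.17, adjusted p = 0.0432 by limma).

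Slc38a2, or SNAT2, which cells raise in amino acid shortage, was set apart by a single liver. On day 14 it had 4876, 6386, 18716, 6341 and 5846 in diclofenac livers, against 4633, 4239, 5862, 5289 and 4909.9 in saline livers. Replicate 3 lay far above every other liver, and the difference of 0.57 ± 0.30 over 5 livers (adjusted p = 0.521 by limma) became 0.23 without it. On days 1 and 3 the Slc38a2 differences were 0.01 ± 0.19 and -0.28 ± 0.19, with overlap. Slc38a1, or SNAT1, a further glutamine carrier, differed by -0.00 ± 0.28, 0.41 ± 0.28 and 0.12 ± 0.24 on days 1, 3 and 14, with overlap each time. A second, dimmer probe set of Slc38a1, above the array median in 5 of 22 livers, differed by 2.72 on day 1 without overlap and by 2.83 and 1.67 on days 3 and 14 with overlap. With the mean of both probe sets, or with each probe set on its own, Slc38a1 was called for the mean effect. Slc38a9, the lysosomal arginine sensor that acts on mTORC1, had 348, 389, 403, 419 and 357 in diclofenac livers on day 14, against 364, 316, 325, 317 and 284 in saline livers (0.26 ± 0.11, adjusted p = 0.434 by limma). The mean of its 7 probe sets gave -0.06 instead, with 4 of them higher and 3 lower. One of the lower probe sets, above the array median in all 22 livers, did not overlap between groups on that day (-0.57).

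Slc36a4, an Slc36a carrier with high affinity for proline and tryptophan, was higher on days 1 and 3. On day 1 it had 505, 736 and 542 in diclofenac livers, against 340.5, 337 and 392 in saline livers. On day 3 it had 665, 580.0 and 457 in diclofenac livers, against 342, 382 and 254 in saline livers. On both days all diclofenac livers were above all saline livers, by 0.72 ± 0.20 (1.65-fold, adjusted p = 0.253 by limma) on day 1 and 0.80 ± 0.20 (1.74-fold, adjusted p = 0.148 by limma) on day 3.

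On day 14 Slc36a4 had 335, 330.1, 989, 419.9 and 392 in diclofenac livers, against 373, 419, 514, 334 and 392 in saline livers. Here 4 of 5 diclofenac livers lay within the range of the saline livers or below it, and the fifth, replicate 3, at nearly double the highest saline liver. The mean effect of the 3 days was 0.56 ± 0.16 (adjusted p = 0.0759 by limma) and passed without diclofenac day 14 replicate 3 (0.46, adjusted p = 0.0128 by limma). Without diclofenac replicate 3 the day 14 difference was -0.13. With replicate numbers as a block the mean effect passed (adjusted p = 0.0454 by limma), as it did without both livers that stood apart (0.41, adjusted p = 0.031 by limma). Slc36a1, which exports amino acids from lysosomes, differed by 0.07 ± 0.17, 0.14 ± 0.17 and 0.20 ± 0.16 on days 1, 3 and 14.

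**Figure D3:**
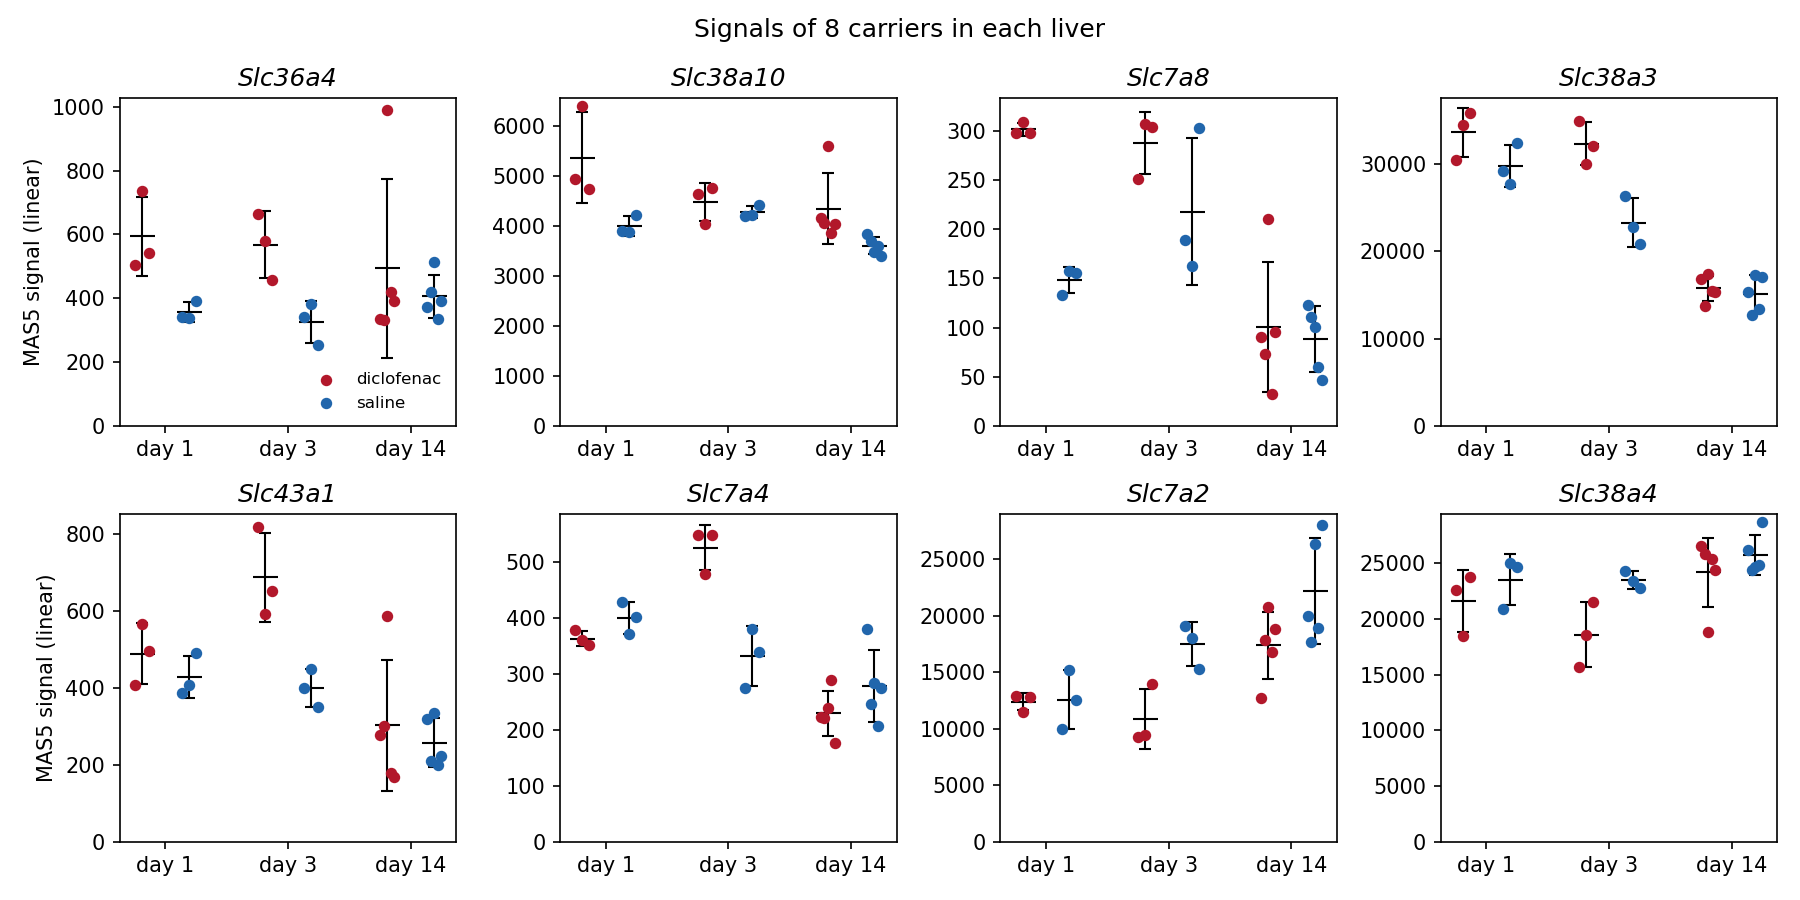
MAS5 signals (vertical axes, linear, from 0) of 8 carriers in each liver, diclofenac left of saline on days 1, 3 and 14, with the group mean and SD. The groups did not overlap on day 1 for Slc36a4, Slc38a10 and Slc7a8, on day 3 for Slc36a4, Slc38a3, Slc43a1, Slc7a4, Slc7a2 and Slc38a4, and on day 14 for Slc38a10; day 14 of Slc38a4 is drawn from its second probe set, which was brighter on those arrays.

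Slc43a1, or LAT3, a sodium-independent carrier of branched-chain amino acids and phenylalanine, had 816, 591 and 652 in diclofenac livers on day 3, against 399.8, 449.7 and 350.1 in saline livers. The groups were well apart, at 0.77 ± 0.17 (1.71-fold, adjusted p = 0.11 by limma), and the call passed without diclofenac day 1 replicate 2 in the shared fit (adjusted p = 0.036 by limma). On day 14 Slc43a1 had 276, 301, 586, 179 and 168 in diclofenac livers, against 318, 211, 334, 199.7 and 223 in saline livers, with overlap (0.11 ± 0.32, and -0.17 ± 0.22 without replicate 3). Slc43a2, or LAT4, differed by -0.45 ± 0.28 on day 1 with overlapping livers (adjusted p = 0.515 by limma), and Slc43a3 by -0.01 ± 0.19 on day 1.

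Of the Slc1a carriers, Slc1a2 and Slc1a4 differed on 1 day each without overlap on the probe set used. Slc1a2, or GLT-1, the glutamate carrier known in liver from perivenous hepatocytes, had 2947, 2858 and 2732 in diclofenac livers on day 1, against 2427, 2129 and 2155 in saline livers (0.35 ± 0.13, adjusted p = 0.336 by limma). Slc1a4, or ASCT1, a carrier of alanine, serine and cysteine, had 222, 199.95 and 192 in diclofenac livers on day 3, against 104, 98.9 and 87.8 in saline livers. The diclofenac livers were all near double the saline livers, at 1.08 ± 0.44 (adjusted p = 0.391 by limma), and its 3 probe sets were higher on each of the 3 days. Its day 1 difference of 0.56 was -0.02 without diclofenac replicate 2, and its day 14 difference of 0.48 was 0.28 without diclofenac replicate 3. A dim Slc1a4 probe set, above the array median in 2 of 22 livers, did not overlap on days 1 and 3 (2.29 and 1.86). Slc1a5, or ASCT2, a glutamine carrier, differed by 0.18 ± 0.34, 0.37 ± 0.34 and -0.04 ± 0.25 on days 1, 3 and 14, and Slc1a7 by -0.89 ± 0.71 on day 1.

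The Slc6a family, sodium and chloride dependent carriers, held no member at an unadjusted p under 0.05 on days 3 and 14 and 1 on day 1. That member was Slc6a13, or GAT2, a GABA and taurine carrier of periportal hepatocytes, with 4544, 3118 and 4369.8 in diclofenac livers on day 1, against 4909, 5466 and 4874 in saline livers. The diclofenac livers were lower without overlap on day 1 (-0.36 ± 0.14, adjusted p = 0.339 by limma), by -0.19 without replicate 2, the liver at 3118 (adjusted p = 0.789 by limma), and overlapped on day 3 (0.29 ± 0.14) and day 14 (-0.01 ± 0.13). The taurine carrier Slc6a6 differed by -0.22 ± 0.19, -0.02 ± 0.19 and -0.04 ± 0.17 on days 1, 3 and 14, the glycine carrier Slc6a9 by -0.08 ± 0.17, -0.03 ± 0.17 and -0.34 ± 0.25, the creatine carrier Slc6a8 by 0.00 ± 0.21, 0.41 ± 0.21 and 0.27 ± 0.19, and the betaine and GABA carrier Slc6a12 by 0.03 ± 0.18, 0.02 ± 0.18 and 0.06 ± 0.13.

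The 16 members tested in no fit were dim, with highest signals from 12.8 (Slc1a6) to 135 (Slc36a2) in any of the 22 livers. They include Slc7a9, Slc7a11, Slc1a3 and, of the monoamine carriers, Slc6a4. Their values set no limit on a change.

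Among the diclofenac comparisons, the calls of day 3 and of the mean effect changed with the livers in the fit. Without diclofenac day 1 replicate 2, which shares the spread of the early fit but not the day 3 means, 5 members passed (Slc36a4, Slc38a3, Slc3a1, Slc43a1 and Slc7a4) among 177 genes in place of 26. Without diclofenac day 3 replicate 3 there was 1, Slc7a2, among 45 genes. Without diclofenac day 14 replicate 3, 4 members passed for the mean effect (Slc36a4, Slc38a10, Slc3a1 and Slc7a2) among 535 genes in place of 224, and without diclofenac day 1 replicate 3 there were 3 (Slc1a4, Slc38a10 and Slc3a1). Slc3a1 was called for the mean effect whichever of the 22 livers was left out, with an adjusted p of 0.00163 to 0.0183 by limma.

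The carriers also differed between saline livers of different days. Saline day 14 livers against the mean of saline days 1 and 3 gave 10 of 44 members called, 3 higher and 7 lower, against a background of 28.4% of 13340 genes, so the members' share of 22.7% lay below that of all genes. The sources used here do not say whether the arrays of day 14 were prepared with those of days 1 and 3, and day and array batch cannot be told apart. Between saline day 3 and saline day 1 livers 0 of 42 members passed (limma, background 0.217%), with 6 at an unadjusted p under 0.05, 3 higher and 3 lower (background 10.3%).

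Slc38a3 had the lowest p of the members, with 15340.0, 12685, 17309, 13426 and 17057 on saline day 14, against 20806 to 32488 (median 27068) in the 6 earlier saline livers, a difference of -0.80 ± 0.10 (adjusted p = 4.66e-06 by limma). Slc6a6 had 974 to 1625 (median 1273) on saline day 14, against 1737 to 2721 (median 2359) earlier, at -0.93 ± 0.16 (adjusted p = 0.000187 by limma). Slc38a6 and Slc6a9 went the other way: Slc6a9 had 1378 to 1889 (median 1595) on saline day 14, against 726 to 1131 (median 937) earlier, at 0.77 ± 0.20 (adjusted p = 0.00664 by limma), and Slc38a6 had 539 to 643 (median 576), against 373 to 454 (median 409.8), at 0.51 ± 0.09 (adjusted p = 0.000367 by limma). In these 4 carriers no late saline liver reached the range of the earlier ones on the probe set used. A second Slc6a6 probe set, above the array median in all 22 livers, was higher on saline day 14. Its saline means were 704, 863 and 1029 on days 1, 3 and 14.

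Slc7a2 was higher on saline day 14, with 17733 to 28007 (median 19977), against 9965 to 19089 (median 15276.5) earlier (0.57 ± 0.15, adjusted p = 0.00726 by limma), and its ranges overlapped. Lower on saline day 14 were also Slc7a8 (-1.10 ± 0.34, adjusted p = 0.0196 by limma), Slc43a1 (-0.71 ± 0.24, adjusted p = 0.0316 by limma), Slc36a1 (-0.45 ± 0.14, adjusted p = 0.0229 by limma), Slc6a13 (-0.42 ± 0.12, adjusted p = 0.0107 by limma) and Slc7a4 (-0.41 ± 0.14, adjusted p = 0.0378 by limma). Of the 10 carriers called, 6 had no overlap between late and earlier saline livers, and diclofenac livers differed in the same direction between day 14 and the earlier days in 10 of 10.

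Leaving out single saline livers ended 4 of these calls. Slc7a4 lost its call without any 1 of 8 livers (day 1 replicates 1 and 3, day 3 replicates 2 and 3, day 14 replicates 2, 3, 4 and 5; adjusted p = 0.0547 to 0.124 by limma), Slc43a1 without any 1 of 6 (day 1 replicate 3, day 3 replicates 1 and 2, day 14 replicates 2, 4 and 5; adjusted p = 0.053 to 0.0841 by limma), Slc7a8 without any 1 of 3 (day 3 replicate 3, day 14 replicates 4 and 5; adjusted p = 0.0544 to 0.0659 by limma) and Slc36a1 without either of 2 (day 1 replicate 1, day 14 replicate 3; adjusted p = 0.0671 and 0.0761 by limma). The mean of all probe sets also ended those of Slc6a6 (-0.29, adjusted p = 0.315 by limma) and Slc6a9 (0.36, adjusted p = 0.114 by limma), and that of Slc7a4 as well (-0.59, adjusted p = 0.332 by limma).

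**Figure D4:**
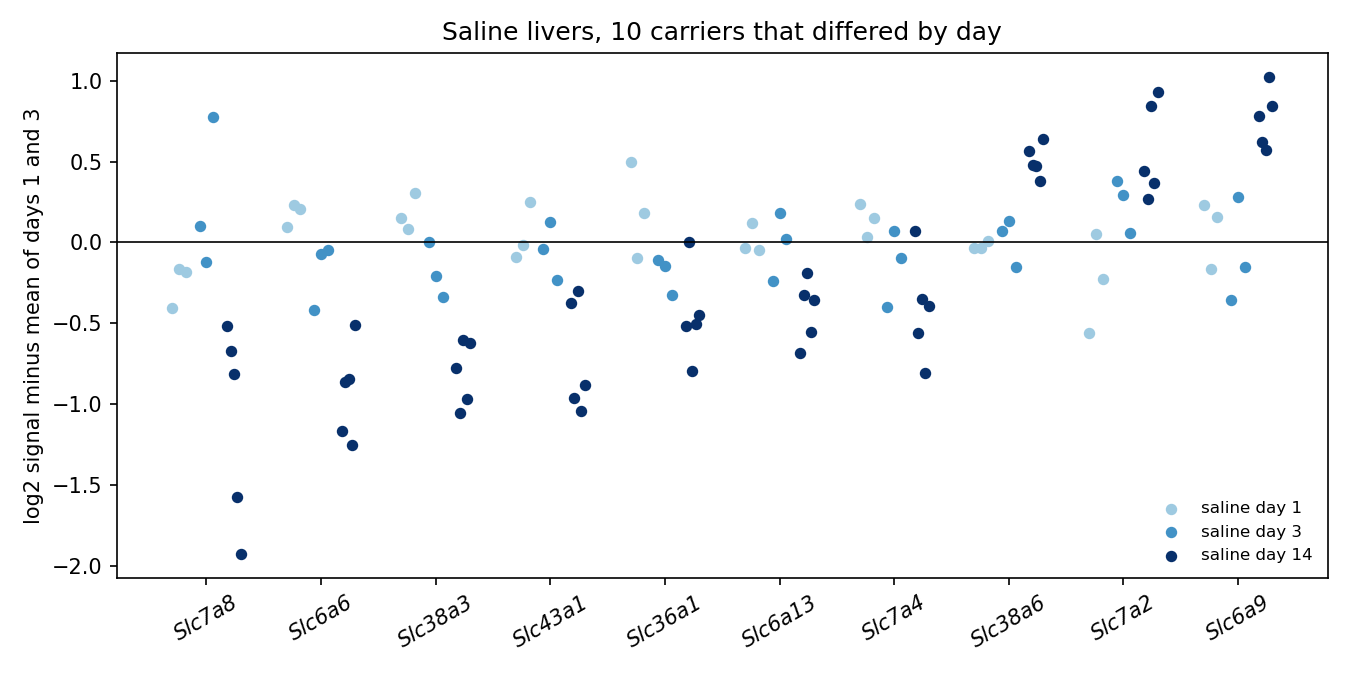
Log2 signal of 10 carriers in saline livers of days 1, 3 and 14, less the mean of the day 1 and day 3 means (vertical axis), one point per liver. Day 14 points lie above 0 for Slc38a6, Slc7a2 and Slc6a9 and mostly below 0 for the other 7.

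Day 14 diclofenac replicate 3 differed from the other 4 diclofenac livers in 8 of the 30 named members tested on day 14, by a test of the gap between the outermost liver and its neighbour (Dixon's ratio). Slc1a2 had 1009.6 in it and 2464 to 2980.0 in the other 4 diclofenac livers, and Slc6a9 had 591 in it and 1342 to 1762 in the others. Slc38a2, Slc36a4, Slc43a3, Slc7a7 and Slc38a10 were higher in this liver and Slc38a4 lower. Slc43a3, at 823 in it and 372 to 445 in the others, differed from saline by -0.19 ± 0.22 over 5 diclofenac livers and by -0.40 ± 0.13 without it (adjusted p = 0.762 and 0.168 by limma), so that its value moved over 1.5 times. Without this liver the day 14 difference of Slc6a9 was -0.07 in place of -0.34, and that of Slc6a8 was 0.12 in place of 0.27. Differences close to 0 changed sign or size without it, to -0.30 in Slc7a8, -0.40 in Slc7a1, -0.20 in Slc3a2, -0.04 in Slc38a1 and 0.08 in Slc6a6. On day 1 the fit without diclofenac replicate 2 likewise gave -0.24 in Slc38a2, -0.28 in Slc7a7, -0.64 in Slc7a1, -0.44 in Slc7a3, -0.03 in Slc1a5 and 0.02 in Slc6a6.

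**Figure D5:**
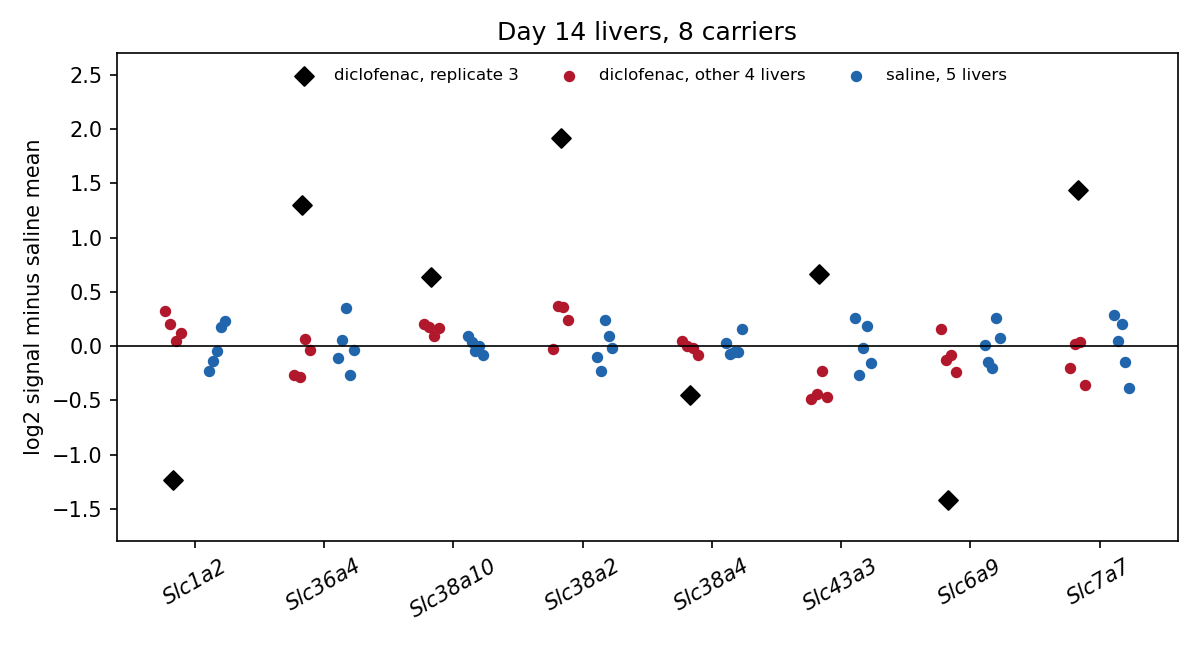
Log2 signal less the saline mean (vertical axis) of 8 carriers on day 14, in diclofenac replicate 3 (diamond), the other 4 diclofenac livers and the 5 saline livers. Replicate 3 lies outside the other 9 livers in all 8 carriers, above them in Slc36a4, Slc38a10, Slc38a2, Slc43a3 and Slc7a7 and below them in Slc1a2, Slc38a4 and Slc6a9.

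None of the 5 genes most like Slc3a1 was a member of the families, which held 44 of the 13340 genes compared. Over the 22 livers of log2 signal less the same-day saline mean, the 5 highest Pearson correlations with Slc3a1 among 13340 genes were those of F10 (0.91), S100a8 (0.91), Itih3 (0.91), Serpinf2 (0.91) and Tmem176b (0.90). F10, Itih3 and Serpinf2 encode plasma proteins made by hepatocytes, namely a clotting factor, a chain of inter-alpha-trypsin inhibitor and antiplasmin, and S100a8 is a neutrophil protein. The points share the day, the array and the treatment, so the values are descriptive, and with each group's mean removed they were 0.86, 0.74, 0.71, 0.69 and 0.72 in the same order. The 2 livers that stood apart, with the highest Slc3a1 signals (10002 and 10099), are among the points of both sets of values. No values without these livers are given. The nearest members of the families were Slc38a10 (0.68) and Slc1a4 (0.62), at positions 442 and 770.

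The wider amino acid pathways held no gene that passed the test. Of the 24 genes known as targets of Atf4 or of the amino acid response 23 were measured; 0 of 23 were called for the mean effect, with 3 higher and 2 lower at an unadjusted p under 0.05 and a median difference of 0.163. Liver enzymes of amino acid breakdown gave 0 of 47 called, with 1 higher and 8 lower at an unadjusted p under 0.05 and a median of -0.0918. By day these enzymes had 7 lower and 0 higher on day 1, 6 higher and 0 lower on day 3 and 4 lower and 0 higher on day 14 at an unadjusted p under 0.05, with none called, where 12.9%, 10.8% and 10.8% of all genes lay at such a p on days 1, 3 and 14. Genes of amino acid sensing by mTORC1 gave 0 of 29, with 2 higher and 5 lower (median -0.00342), genes of glutathione synthesis and breakdown 0 of 11, with 2 higher and 1 lower (median 0.155), and other amino acid or peptide carriers and partners 0 of 9, with 2 higher (median 0.0929). The median over all 13340 genes was -0.00497, and 18.5% of them lay at an unadjusted p under 0.05.

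Markers of other cells differed beside these carriers. Of 7 neutrophil markers tested, 3 passed the test for the mean effect, Prtn3 (4.08 ± 0.66), S100a8 (3.57 ± 0.67) and S100a9 (3.27 ± 0.62), and none of 10 Kupffer cell markers did, with 8 higher at an unadjusted p under 0.05 by limma. The macrophage gene Chil3 (4.98 ± 0.59), 1 of 6 monocyte or macrophage markers tested, also rose. The endothelial marker Oit3 (-0.42 ± 0.09) and the stellate cell marker Reln (-0.58 ± 0.12) fell, each the only 1 called of 7 tested for its cell type. The median mean effect was 0.031 for the endothelial markers and -0.199 for the stellate cell markers. Endothelial sums overlapped on every day. The summed stellate cell markers were 8949 to 11081 in diclofenac livers and 13947 to 17740.3 in saline livers on day 1, without overlap, and overlapped on days 3 and 14, while the hepatocyte markers overlapped on every day. Without overlap were also the monocyte sums of day 3 (3691 to 4767 in diclofenac livers and 2830.4 to 3083 in saline livers). The cholangiocyte sums of day 14 did not overlap either (340.8 to 2394 in diclofenac livers and 249.6 to 336 in saline livers). The sum of 2394 was that of diclofenac replicate 3 alone, and the other diclofenac livers of that day lay far below it. The lowest of them, at 340.8, lay just above the highest saline liver, at 336. Lower in diclofenac livers without overlap were the erythroid and exocrine pancreas sums of day 1. Of the 3 erythroid markers measured only Alas2 (962 to 2061) lay above the array median in all 22 livers. Of the 6 pancreas markers measured only Cela1 (586 to 3782) did. Neutrophil sums did not overlap on any day. Kupffer cell sums did not overlap on days 1 and 3 and overlapped on day 14, where diclofenac replicate 3 had 35449. On day 1 the Kupffer cell sums were 29403 to 42142 in diclofenac livers and 16657.5 to 28383 in saline livers. The part of any of these cells in the carrier results was not tested.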

How the data were processed

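One array per liver was read from the deposited table of intensity values, linear signals of 45101 probe sets that the authors made with MAS5 (submitters' processing notes) and a global normalization, with no detection calls. The scaling was checked on the values, whose 2% trimmed mean was 500.0 on all 22 arrays. Signals were set to log2 and fitted with limma 3.58.1 (R 4.3.3), days 1 and 3 together, day 14 alone, and all arrays for effects across days, with Benjamini-Hochberg adjustment over all genes tested and a threshold of 0.05. For a gene with several probe sets the brightest on average was used, and genes above the array median (50th percentile) in at least 3 arrays were tested. The scripts were tested on simulated data. The number of arrays limits the precision.

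Alternatives were the filter (none or the 60th percentile), quantile and median normalization, an added offset, other probe set rules, array weights, a replicate block, other sets of arrays, the methods' t-test (p under 0.05 and over 1.5-fold), the study's second thresholds (limma, p under 0.01, 1.5-fold or more) and each liver left out in turn. Leaving out both diclofenac livers that stood apart was added after seeing the data. The deviations of same-numbered livers from their group means had correlations of -0.106 to 0.113 over 11 pairs, so numbers were not taken as pairs. Members, gene lists, markers and motifs were chosen with earlier results of these data known. The members given with values were those called in any comparison, the 3 of lowest p in each direction per comparison, and a list of 26 carriers with known liver or textbook roles. Gene names came from the platform annotation, and positions and promoters from RefSeq (GRCm38.p6). Python 3.11.15 and scipy 1.17.1 gave the exact permutation tests.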

Additional observations from a re-analysis of the deposited data

Results flagged for a closer look

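In each day 14 group of 5 livers the gap of the highest or lowest log2 signal to its neighbour was divided by the whole range and set against Dixon's critical value of 0.71. Of 60 groups, 2 for each of the 30 named members tested on that day, 10 exceeded it, and chance gives about 1 in 20. Of these 10, 8 were diclofenac groups, and in all 8 the liver that stood out was replicate 3. The highest ratios belonged to Slc1a2 (0.824, low at 1009.6), Slc38a2 (0.799, high at 18716), Slc38a10 (0.794, high at 5596), Slc36a4 (0.781, high at 989), Slc7a7 (0.779, high at 291) and Slc43a3 (0.773, high at 823), followed by Slc6a9 (0.75, low at 591) and Slc38a4 (0.747, low at 18847). The other 2 were saline replicate 4, low for Slc7a1 (0.761, 14.3 beside 96.7 to 177 in the other 4) and for Slc6a8 (0.728, 235 beside 326 to 368). The 8 flags of diclofenac replicate 3 come from 1 liver and are not independent of each other.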

How the results depend on the processing

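Slc3a1 kept its call for the mean effect under every alternative run (log2 1.15 to 1.56). Counts of members called moved as follows. On day 1 (0) they were 2 by the methods' t-test and 3 by the second thresholds. On day 3 (0) they were 6 with array weights, 1 with the arrays of that day alone, 7 by the methods' t-test, 5 by the second thresholds, 5 without both diclofenac livers that stood apart (added after seeing the data) and 0 to 5 when single livers were left out. On day 14 (0) they were 1 with array weights, all 22 arrays in one model, the methods' t-test, the second thresholds and without both livers, and 0 to 1 without single livers; each time the member was Slc3a1. For the mean effect (1) they were 2 with the mean of all probe sets and 2 with every probe set on its own (both adding Slc38a1), 3 with array weights, 2 with the replicate block, 2 by the second thresholds, 3 without both livers and 1 to 4 without single livers. The second thresholds gave 2 for the day 3 against day 1 effect (0) and 5 for saline day 14 (10), where single livers gave 7 to 13. Replicate numbers did not pair the livers, and the replicate block changed no other count of members beyond 1.5 times, but ended the saline day 14 call of Slc7a4 (adjusted p = 0.087 by limma). All genes called for the mean effect (224) were 484 with array weights, 367 without both livers and 108 to 535 without single livers. On day 3 (26) they were 147 with array weights, 141 with that day alone, 6 with the replicate block, 1 with all 22 arrays, 13 with the mean of all probe sets, 16 without a filter and 0 to 177 without single livers. On day 14 (0) they were 103 with array weights, 133 with all 22 arrays, 15 with arrays centred on their median and 0 to 123 without single livers. Averaging probe sets reversed Slc7a4 on day 3 (-0.31), with 1 dim probe set at -3.26, and Slc38a9 on day 14 (-0.0619). Why probe sets of a gene differed was not tested. Signals near the array median carry large errors, and MAS5 values without detection calls give no lower limit for dim carriers.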
